A study of Triticum aestivum with 122 samples.

Results

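Rachis of unemerged wheat heads kept for 24 h at 29 °C was set against rachis of heads that stayed at 22 °C, after seed germination with dimethyl sulfoxide (DMSO), the control seed treatment. The members are the 8 rachis libraries that the labels give as DMSO seed and 24 h: 4 at 29 °C and 4 at 22 °C. They are 8 of the 122 samples of the series and 8 of the 121 that have a column in the table of values. All plants were Triticum aestivum cultivar Vida. Seeds were germinated for 48 h in the dark with 1 µM DMSO, or, in the other arm of the study, with 1 µM of the brassinosteroid 2,4-epibrassinolide (EBR). Plants grew at 22 °C under 16 h of light. At the tetrad stage, during booting, part of the pots went to constant 29 °C. Heads were taken at 0 h, with all pots still at 22 °C, and again at 8, 16 and 24 h. Each head was dissected into rachis and floret before RNA was extracted, so the 2 tissues of a replicate come from 1 head. The labels call the replicates biological. Each sample also carries a plant number, which is 4 in all libraries of the 29 °C group and 8 in all of the 22 °C group. This number moves with temperature and cannot be told apart from it, and whether replicates of a group share a plant was not tested. Below, the plant of a library means the head of its replicate. The heads come from 1 cultivar, and each library holds 1 dissected tissue of mixed cell types.

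The rachis is the axis of the wheat head. It carries the spikelets and holds the vascular strands through which water, sugars and hormones reach the florets. The tetrad stage follows meiosis in the anthers, when the microspores of a meiosis are still held together, and it is known as a stage at which heat can damage pollen formation. Plant cells exposed to warmth are known to make chaperones that bind unfolded proteins, and brassinosteroids are growth hormones that have been tied to heat tolerance. None of the gene families behind these processes could be picked out here. The files give gene IDs without names, and 0 of them matched any of the 155467 genes of the name table at hand, so genes appear by ID. The first part of an ID gives the chromosome, and the IDs used here lie on chromosomes 1 to 5.

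The libraries held 13707920, 15862211, 13883499 and 14979001 whole reads over the listed genes at 29 °C and 10598979, 12439716, 11505636 and 11978168 at 22 °C. Depth therefore moved with temperature, every 29 °C library being deeper than every 22 °C library. At the depth of the shallowest library, the number of genes with a read was 44415 ± 652 at 29 °C and 42467 ± 1407 at 22 °C (SD, n = 4 each; two-sided exact permutation test, p = 0.0857). Intervals and floors derived from reads cover counting error only, and 3 reads correspond to 3.13 to 4.50 normalized counts in these libraries. The tissue label was checked with 1308 genes that lean to the rachis and 518 that lean to the floret at least 2-fold in 22 °C heads at 8 and 16 h. A score, the mean log2 level of the first list relative to the second, lay between 1.96 and 4.48 in the 8 rachis libraries and between −1.22 and 0.58 in the 8 floret libraries of the same heads. Floret-leaning genes took 0.165 to 0.394% of the values in 29 °C rachis and 0.224 to 0.314% in 22 °C rachis, against 0.69 to 1.81% in the florets of these heads. None of the 518 was at 0 in all 8 rachis libraries. In 3 of 59 plants with both tissues the score was higher in the library labelled floret: 2 of DMSO seed at 0 h and 1 of EBR seed at 22 °C and 16 h. None of them is among the 8 libraries. They enter the comparisons with 0 h and the shared estimate of spread. Without these 3 plants the count of genes called between the temperatures at 24 h was 12009, against 11798 with them. For 29 °C minus 0 h the count was 23770 against 24947, and for 22 °C minus 0 h it was 11307 against 14630.

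After 24 h at 29 °C the levels of a large part of the measured rachis genes differed from those at 22 °C. Of 38883 genes tested, 11798 were called (30.3%; limma, Benjamini-Hochberg adjusted p under 0.05): 6158 were higher at 29 °C (15.8%) and 5640 lower (14.5%). In this test the higher genes moved further. At least 2-fold differences were found in 3067 higher and 1671 lower genes, and at least 4-fold differences in 1703 higher and 140 lower genes. The median log2 difference was 0.99 among the higher genes and −0.69 among the lower, and 0.06 over all genes tested. Both medians stayed at these values when the 59 higher and 10 lower genes at 0 in all 4 libraries of a group were set to the bound that 3 reads a library allow. The 4 libraries at 29 °C lay above the 4 at 22 °C in 4083 of the higher genes, and below them in 2685 of the lower genes. Over all genes tested, 12.8% were separated in the higher and 7.83% in the lower direction. The split into higher and lower depended on the test: edgeR on whole reads called 4862 higher and 6743 lower genes, DESeq2 5274 and 6113, and rescaling with trimmed mean of M-values (TMM) factors 5515 and 6301. The excess of higher genes at 2-fold depended on it too. At least 2-fold differences were called in 2177 higher and 2180 lower genes by DESeq2, and in 2305 and 2311 by edgeR. Among genes with a mean of at least 50 over the rachis libraries they were 1097 and 1292. In bulk tissue, fewer cells of a type and less RNA per cell cannot be told apart.

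Genes are named by a rule that asks for a call, a mean of at least 50 normalized counts over the 8 libraries, groups that do not overlap, and a highest library at most 3 times the lowest in the higher group. Among the genes that passed it, the largest rises were in a pair listed next to each other on chromosome 2A. TraesCS2A03G0031100.1 had 439, 558, 884 and 952 normalized counts in 29 °C rachis, against 67.5, 0, 0 and 0 in 22 °C rachis. TraesCS2A03G0031200.1 had 563, 588, 1059 and 1045 in 29 °C rachis, against 94.6, 0, 1.36 and 1.29 in 22 °C rachis. In both genes the groups were far apart, and replicate 1 was the single 22 °C library with clear signal. On the log2(normalized count + 1) scale the differences were 7.87 (SE 0.731, adjusted p = 1.1e-11) and 7.35 (SE 0.815, adjusted p = 1.7e-09). DESeq2 gave 5.39 and 5.07 with adjusted p of 0.15 and 0.14 and called neither. Over the alternatives tried, the adjusted p ran from 2.8e-18 to 0.15 for TraesCS2A03G0031100.1 and from 1.1e-14 to 0.14 for TraesCS2A03G0031200.1. All 8 rachis libraries of DMSO seed at 0 h had 0 counts of either gene. Neighbouring genes can be near-identical copies whose reads the counting splits between them, so these 2 may not be independent measurements.

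The largest falls by the same rule were in 2 genes on the D subgenome. TraesCS1D03G0648300.1 had 9.03, 25.1, 20.4 and 18.0 normalized counts at 29 °C, against 137, 379, 130 and 156 at 22 °C. The difference on the log2 scale was −3.33 (SE 0.474, adjusted p = 6.0e-07), and replicate 2 was far above the other 22 °C libraries. TraesCS4D03G0181100.1 had 128, 63.7, 50.4 and 47.1 at 29 °C, against 494, 857, 459 and 940 at 22 °C. Its difference was −3.28 (SE 0.358, adjusted p = 1.1e-09), with every 29 °C library below every 22 °C library. Against the 8 unheated libraries at 0 h, the 2 genes were lower at 29 °C by −3.46 (SE 0.41) and −3.14 (SE 0.31), while the 22 °C group differed from 0 h by −0.13 (SE 0.41, adjusted p = 0.82) and 0.14 (SE 0.31, adjusted p = 0.74).

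**Figure D1:**
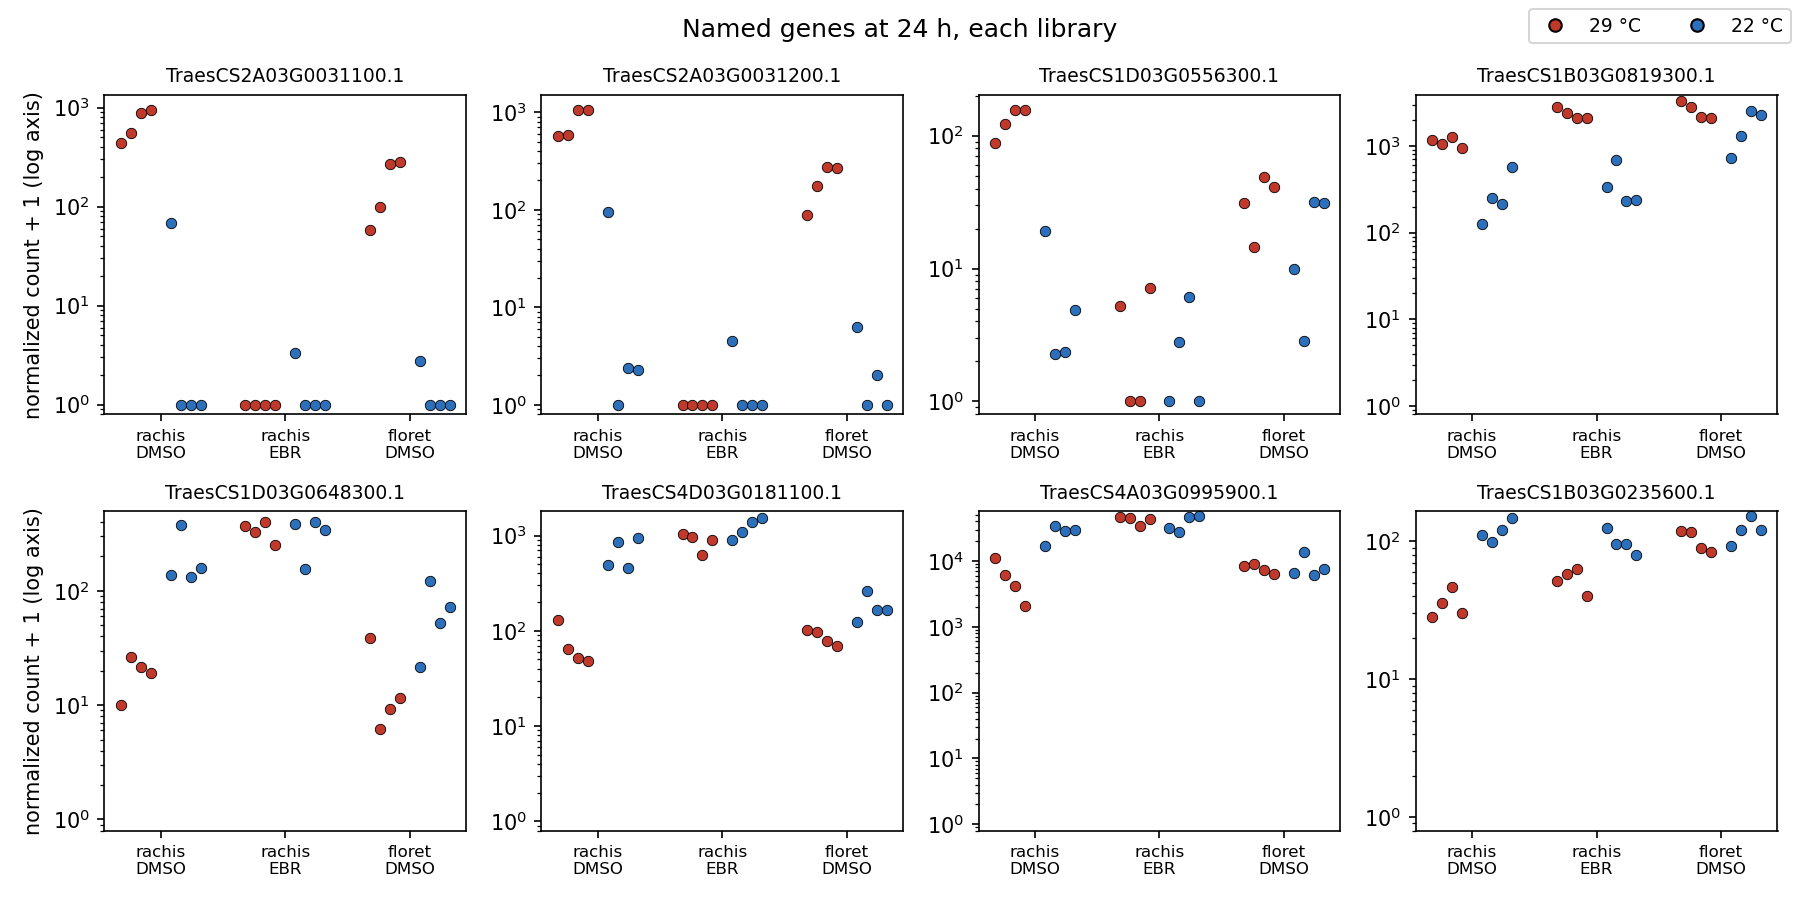
Normalized count + 1 (log axis) of the 8 named genes in each 24 h library, 29 °C in red left of 22 °C in blue, for rachis of DMSO seed, rachis of EBR seed and floret of DMSO seed; each point is a library. In the left column of each panel the 29 °C and 22 °C points do not overlap; in the 2 genes on 2A the EBR rachis lies near 0 at both temperatures.

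A set of 315 genes was higher at least 16-fold. Their median level, as log2(normalized count + 1), was 6.13, 6.91, 7.73 and 7.89 in the 29 °C libraries, against 4.00, 0.00, 1.90 and 1.84 in the 22 °C libraries. Thus the 22 °C libraries differed widely among themselves, replicate 1 standing closest to the 29 °C group and replicate 2 standing at a median of 0. A level of at least 10 normalized counts was reached by 294, 312, 311 and 315 of the genes at 29 °C, against 183, 30, 89 and 101 at 22 °C. Replicate 1 was the highest 22 °C library in 285 of the 315 genes. The 2 groups did not overlap in 300 of them, which the choice by fold favours. Leaving out replicate 2 of 22 °C left 307 of the 315 called, and leaving out replicate 1 left 314. A fit of the compared groups alone kept 273, and DESeq2 kept 208. With only genes at a mean of at least 50 over the rachis libraries, 80 were called, since genes below that mean left the test. The set was spread over all chromosomes measured, with 0.578% of tested genes on 3D and 1.08% on 2D as the lowest and highest shares. Of the genes listed directly beside one of the set, 3.57% belonged to it as well, against 0.81% of all genes tested, and neighbours that are near-identical copies may share reads.

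Genes near 0 at 22 °C and present at 29 °C outnumbered those with the reverse pattern. Of 302 tested genes with a mean under 1 normalized count at 22 °C, 52 had at least 10 in all 4 libraries at 29 °C. Of 319 with a mean under 1 at 29 °C, 0 had at least 10 in all 4 at 22 °C. With a mean of at least 10 in the other group, the counts were 138 and 18. The 52 genes had a median mean of 33.2 normalized counts at 29 °C and reached 345 at most. In 43 of the 52 the mean at 0 h was also under 1. In 46 of the 52 the mean was under 1 in 29 °C rachis of EBR seed at 24 h, and 0 of them had at least 10 in all 4 of those libraries. These 52 were chosen by their levels in the 8 libraries, so their difference between the temperatures is a description. A gene was tested if it had at least 10 in at least 3 rachis libraries, so the 29 °C libraries alone could bring these genes in. That favours low levels in the other groups, and the 43 and 46 were not set beside the share in other genes.

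**Figure D2:**
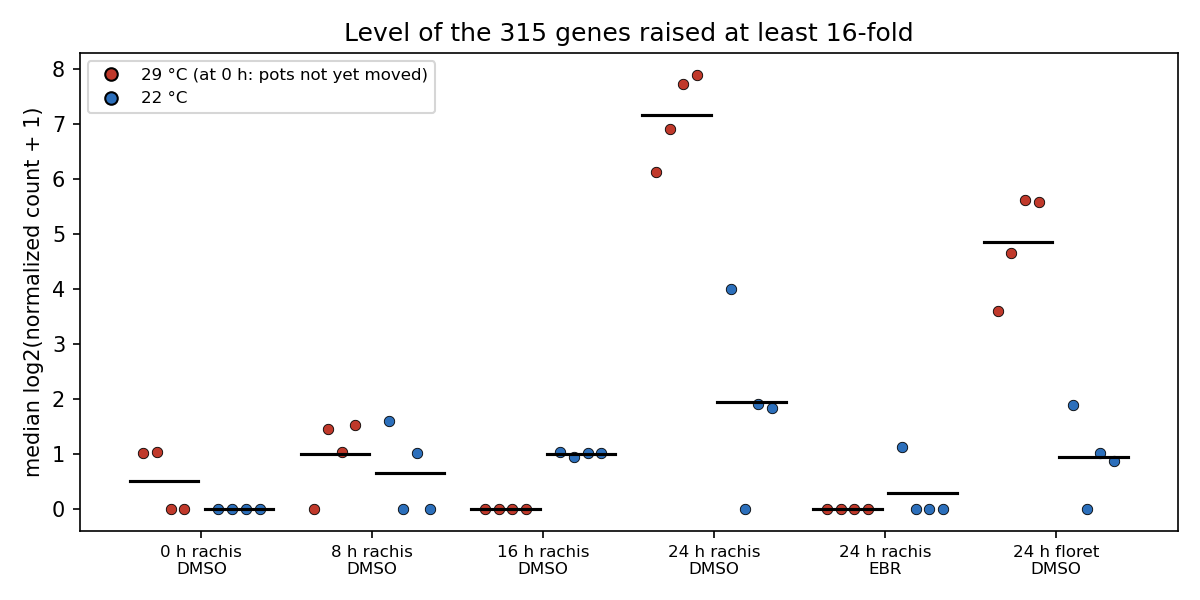
Median log2(normalized count + 1) of the 315 genes in each library, 29 °C in red left of 22 °C in blue, by time, seed treatment and tissue; horizontal bars are group means. The 4 heated rachis libraries at 24 h after DMSO seed lie between 6.13 and 7.89, the heated florets of the same heads between 3.60 and 5.61, and 22 °C replicate 1 at 4.00.

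Within the 22 °C group a single library stood apart from the others. The main axis of expression differences among heads of the same group, called the head axis here, is the first principal component of the rachis values after group means were removed. It held 28.0% of the variation within groups, against 7.87% for the second component, and it was oriented so that a higher score goes with more detected genes. The score was 1.883, 2.291, 2.177 and 2.279 in the 29 °C libraries and 2.142, −0.902, 1.363 and 1.689 in the 22 °C libraries. The 29 °C group was thus tight and high, while replicate 2 of the 22 °C group lay below every other library of both groups. These 8 libraries took part in building the axis, which favours a library far from its group. On an axis built from the other rachis groups, the scores were 1.703, 2.128, 1.991 and 2.05 at 29 °C. At 22 °C they were 1.981, −0.792, 1.335 and 1.699. On the first axis, which the 8 libraries helped to build, the means were 2.157 ± 0.19 at 29 °C and 1.073 ± 1.35 at 22 °C (SD, n = 4 each). The difference of 1.08 did not pass a two-sided exact permutation test (p = 0.0571, adjusted over the 4 library measures 0.171, where 4 against 4 cannot go below 0.0286). In the rachis libraries of DMSO seed at 0, 8 and 16 h the score ran from −1.786 to 1.161. Replicate 2 of 22 °C lay within that range, while the other 22 °C libraries and all at 29 °C lay above it. Among EBR rachis libraries the highest score was 1.493, above the 1.363 of replicate 3 of 22 °C. Which 22 °C libraries are unusual for rachis was not tested.

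**Figure D3:**
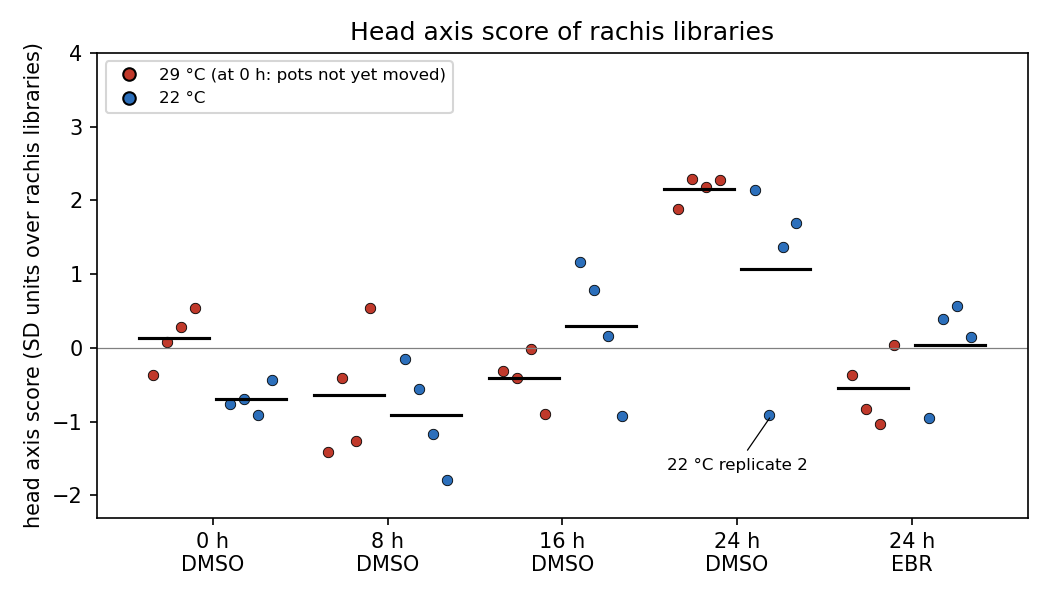
Head axis score of the rachis libraries at 0, 8, 16 and 24 h after DMSO seed and at 24 h after EBR seed, 29 °C in red left of 22 °C in blue; each point is a library and horizontal bars are group means. The 4 heated libraries at 24 h after DMSO seed lie between 1.883 and 2.291, and 22 °C replicate 2 lies at −0.902.

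Replicate 2 also stood apart in the called genes, which were chosen with it in the fit, so a 22 °C library far from the 29 °C group is favoured among them. Relative to the mean of the other 3 libraries at 22 °C it was lower by a median of −0.70 (log2) in genes called higher at 29 °C, and higher by 0.62 in genes called lower. Replicate 1 of 22 °C lay on the other side, with medians of 0.47 in the higher and −0.39 in the lower genes. The median SD of a gene on the log2 scale was 0.286 at 29 °C and 0.441 at 22 °C, or 0.268 at 22 °C without replicate 2, against 0.227 to 0.326 in the 11 other rachis groups of 4 libraries. Without this library 6748 genes were called, 3601 higher and 3147 lower, and 6424 of them had been called with it. Without replicate 1 of 22 °C the count was 13655. Leaving out each of the other 6 libraries gave between 8654 and 12138 genes. A fit of only the 8 libraries, with their own estimate of spread, called 1953 genes, 1396 higher and 557 lower. With the head axis score of the same plant's floret as a covariate the count was 7778, of which 6103 were among the 11798, against 11734 in the same plants without the covariate.

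**Figure D4:**
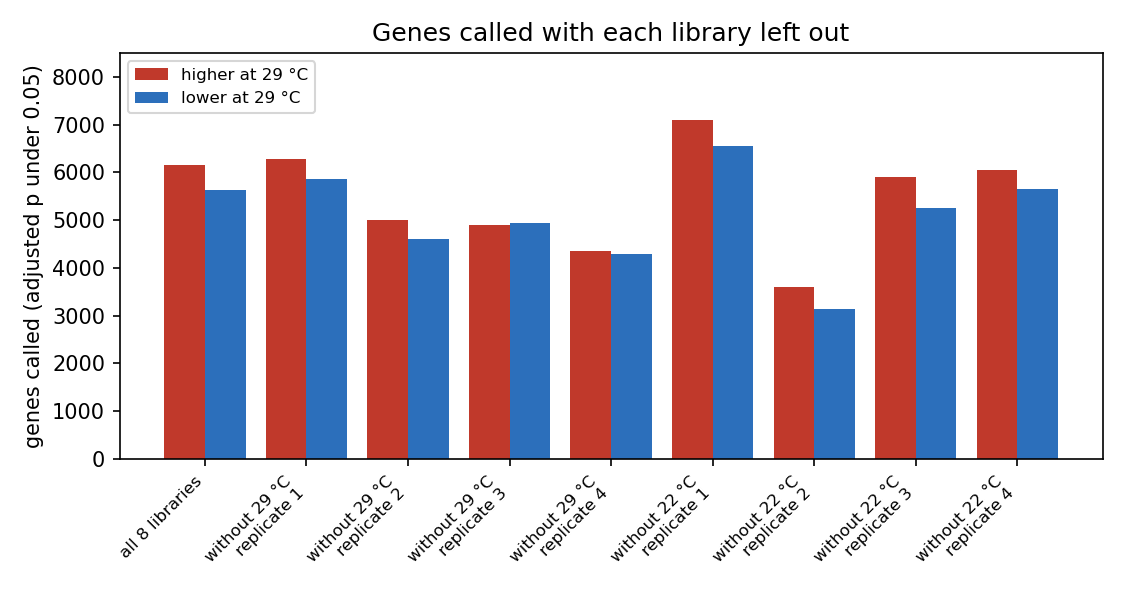
Genes called higher (red) and lower (blue) at 29 °C with all 8 libraries and with each library left out in turn (bars start at 0). The bars are lowest without 22 °C replicate 2 (3601 and 3147).

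Both temperatures were also set beside the heads at 0 h. The 0 h level came from 8 unheated DMSO rachis libraries, 4 from pots assigned to each temperature. Among them are the rachis libraries of the 2 plants at 0 h whose tissue scores were crossed. The 29 °C group differed from 0 h in 24947 genes (64.2% of those tested; 13851 or 35.6% higher, 11096 or 28.5% lower) and the 22 °C group in 14630 (37.6%; 7646 or 19.7% higher, 6984 or 18.0% lower). Both splits turned in the main test with TMM factors, at 12348 higher and 12552 lower genes at 29 °C and 6618 and 8055 at 22 °C. The split at 22 °C did not turn by DESeq2 with the deposited scaling (8748 and 6080) or by edgeR, which uses TMM factors (8180 and 6242). At 29 °C, DESeq2 gave 13763 and 11100 genes and edgeR 12781 and 12128. In the genes called higher at 29 °C than at 22 °C, the median log2 difference from 0 h was 1.33 at 29 °C and 0.36 at 22 °C (0.35 with genes at 0 in a group set to their bound). In those called lower, it was −1.02 at 29 °C and −0.36 at 22 °C. These genes were chosen for the gap between the 2 temperatures, and both values subtract the same 0 h level, so the order of the medians is fixed by the choice. The named genes show that single genes can depart from the 22 °C medians, since TraesCS1B03G0819300.1, called higher at 29 °C, was lower at 22 °C than at 0 h by −1.72. With the head axis covariate, 2893 of the 24947 genes called for 29 °C against 0 h took the opposite sign. TMM factors moved the median of all genes in the comparison of 29 °C with 0 h to 0.01, against 0.11 as deposited. The 22 °C count depended strongly on single libraries, with 19724 genes without replicate 2 and 5693 without replicate 1. Time, growth of the head and temperature enter the comparison of 29 °C with 0 h together and cannot be told apart in it.

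The calls followed a gene's correlation with the head axis. Each gene's correlation with the axis was taken from the 14 other rachis groups only, so the 8 libraries had no part in it. Among the 6291 genes with a correlation above 0.6, 26.5% were called higher and 1.84% lower at 29 °C. Among the 5072 genes below −0.6, 0.927% were called higher and 50.7% lower. Genes with little tie to the axis were called as well: between 0 and 0.2, 960 of 5201 were higher (18.5%) and 417 lower (8.02%), and between −0.2 and 0, 553 of 4872 were higher (11.4%) and 502 lower (10.3%). Across 38883 genes, which are not independent replicates, the temperature difference at 24 h correlated with the axis correlation at Pearson r = 0.402. The value was 0.198 at 8 h, −0.44 at 16 h and −0.428 at 24 h after EBR seed, so the direction along the axis was not the same in the 4 comparisons. For 24 h minus 0 h it was 0.612 at 29 °C and 0.656 at 22 °C. The part of the head axis in the temperature difference was not tested beyond the covariate fit.

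**Figure D5:**
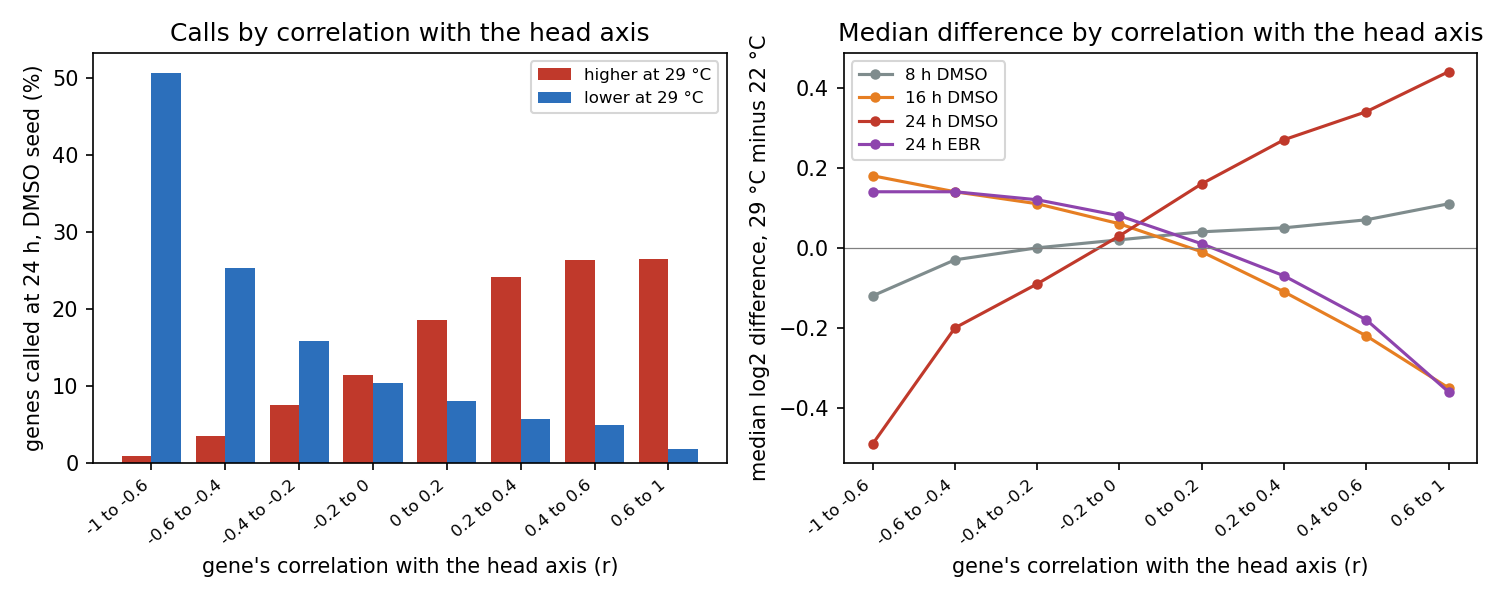
Left, percent of genes called higher (red) and lower (blue) at 29 °C at 24 h after DMSO seed in 8 bins of a gene's correlation with the head axis; right, median log2 difference of 29 °C minus 22 °C in the same bins for 8, 16 and 24 h after DMSO seed and 24 h after EBR seed. At 24 h after DMSO seed the median runs from −0.49 to 0.44 with increasing correlation, while at 16 h it runs from 0.18 to −0.35 and after EBR seed from 0.14 to −0.36.

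More genes differed between the temperatures at 24 h than at the earlier times. Heat effects were called in 754 genes at 8 h (1.94%; 427 or 1.1% higher, 327 or 0.841% lower) and 809 at 16 h (2.08%; 430 or 1.11% higher, 379 or 0.975% lower). The effect at 24 h differed from that at 8 h in 3089 genes (7.94%; 2066 or 5.31% more positive at 24 h, 1023 or 2.63% more negative) and from that at 16 h in 9307 genes (23.9%; 5001 or 12.9% and 4306 or 11.1%). For these differences edgeR gave 1423 and 1772 genes, and 3998 and 5374. Without replicate 2 of 22 °C the 2 counts were 1683 and 4583, without replicate 1 of 22 °C the first was 5909, and without replicate 4 of 29 °C it was 1749. Of the genes called higher at 24 h, 211 were also called higher at 8 h, which is 3.43% of the 24 h list and 49.4% of the 8 h list. For lower genes the overlap was 171, or 3.03% of the 24 h list and 52.3% of the 8 h list. At 16 h, 127 higher genes were shared (2.06% and 29.5%) and 116 lower genes (2.06% and 30.6%). In the genes called higher at 24 h, the median log2 difference was 0.10 at 8 h and −0.12 at 16 h, and in those called lower it was −0.16 and 0.07.

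A core of 77 genes was higher at 8, 16 and 24 h, and 52 were lower at all 3 times. The median log2 difference of the 77 was 0.69 at 8 h, 0.69 at 16 h and 0.49 at 24 h, and that of the 52 was −0.53, −0.55 and −0.61. The difference between 24 h and 8 h was called in 3 of the 77 and 1 of the 52, a low number that the choice by a call at both times favours. At 24 h after EBR seed the medians were 0.59 and −0.54. All 77 and all 52 had the same sign there, and 63 and 42 were called, against 1.22% and 1.39% of all genes tested in these directions. The EBR means had no part in choosing these genes, while the EBR libraries entered the filter and the shared estimate of spread. At 22 °C their median difference from 0 h was 0.00 and 0.07. Their median absolute correlation with the head axis was 0.284 and 0.33, against 0.404 over all genes tested. Without replicate 2 of 22 °C, 67 of the 77 and 49 of the 52 were still called at 24 h. At 24 h a fit of the compared groups alone called 26 and 23 of them. At 8 h such a fit called only 25 higher and 11 lower genes among all tested. How many of the core it called at all 3 times was not counted.

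Of the 77 genes, 57 passed the naming rule, as did 39 of the 52. Among the 57, the largest rise at 24 h was in TraesCS1B03G0819300.1 on chromosome 1B. At 24 h it had 1174, 1049, 1275 and 954 normalized counts at 29 °C, against 125, 247, 215 and 572 at 22 °C. The differences on the log2 scale were 2.98 (SE 0.536) at 8 h, 3.18 (SE 0.536) at 16 h and 2.15 (SE 0.536, adjusted p = 0.0018) at 24 h, and 2.81 (SE 0.536, adjusted p = 0.0011) at 24 h after EBR seed. The differences of 24 h from 8 h (−0.83, SE 0.758) and from 16 h (−1.02, SE 0.758) were not called. Its level at 22 °C was itself lower than at 0 h by −1.72 (SE 0.464, adjusted p = 0.0039), while the 29 °C group differed from 0 h by 0.43 (SE 0.464, adjusted p = 0.42). Among the 39, the largest fall was in TraesCS1B03G0235600.1, also on 1B, with 27.1, 34.5, 45.6 and 29.2 at 29 °C, against 110, 97.9, 120 and 146 at 22 °C. Its difference was −0.94 at 8 h, −0.81 at 16 h and −1.78 at 24 h (each SE 0.197), and that at 24 h differed from that at 16 h by −0.97 (SE 0.279, adjusted p = 0.0098).

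After EBR seed the same exposure gave a shorter list. At 24 h, 1016 genes differed between the temperatures in EBR rachis (2.61%; 474 or 1.22% higher, 542 or 1.39% lower). The difference of the 2 effects, DMSO minus EBR, was called in 7371 genes (19.0%; 3986 or 10.3% more positive after DMSO seed, 3385 or 8.71% more negative), or 2877 and 4446 by edgeR. It fell to 2954 without replicate 2 of the 22 °C DMSO group, to 4813 without replicate 4 of the 29 °C DMSO group, and to 1572 with the head axis covariate. Of the genes higher in DMSO rachis, 180 were also called higher in EBR rachis, which is 2.92% of the DMSO list and 38.0% of the EBR list. For lower genes the overlap was 193, or 3.42% and 35.6%. The median log2 difference in EBR rachis was −0.05 in the genes called higher and 0.01 in those called lower after DMSO seed. The median level of the 315 genes higher at least 16-fold was 0.00 in each of the 4 heated EBR libraries. The head axis score of those libraries was −0.364, −0.826, −1.029 and 0.035, and that of the 22 °C EBR libraries was −0.951, 0.393, 0.566 and 0.148.

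Among the named genes, 2 were chosen for the difference between the seed treatments. TraesCS2A03G0031100.1 had 0 counts in all 4 EBR libraries at 29 °C, against 2.34, 0, 0 and 0 at 22 °C. Its difference of effects was 8.31 (SE 1.03, adjusted p = 1.1e-07), the largest positive one among the genes that passed the naming rule. By edgeR its adjusted p was 0.16 and by DESeq2 0.25, and over all alternatives it ran from 1.4e-13 to 0.25. TraesCS1D03G0648300.1 had 367, 329, 397 and 253 in heated EBR rachis, against 384, 155, 402 and 341 at 22 °C. These ranges overlap, and all 4 heated values lie far above the 9.03 to 25.1 of heated DMSO rachis. The difference of effects was −3.47 (SE 0.67, adjusted p = 0.00034), and it was called in every alternative tried.

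The florets of the same heads shared much of the response. In the floret 14772 of 38320 genes were called at 24 h (38.5%; 8038 or 21.0% higher, 6734 or 17.6% lower), and edgeR gave 6256 higher and 8005 lower genes. Of the genes called in both tissues, 6972 of 7053 had the same direction, and the tissues come from the same heads, so that anything that differed between heads enters both. The median log2 difference in the floret was 0.57 in the genes called higher in the rachis and −0.45 in those called lower. Of the 315 genes higher at least 16-fold in the rachis, 220 were measured in the floret and 208 of them were called higher there. To be measured, a gene needed at least 10 in at least 3 floret libraries. The median level of the 315 was 3.60 to 5.61 in the heated florets of these heads, and at most 1.88 in any other floret library. Genes that rose in the heated florets could thus pass through that group alone, so the filter favours the 208. A test of the difference, rachis minus floret, called 1321 of 40613 genes (3.25%; 521 or 1.28% more positive and 800 or 1.97% more negative in the rachis). With the plant as a block the count was 3210 (1223 and 1987), and a fit of the compared groups alone gave 10. Leaving out each rachis library gave 737 to 2622 genes, with 754 and 737 without replicates 3 and 4 of 29 °C, 2305 without replicate 2 of 22 °C and 2622 without replicate 1 of 29 °C.

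TraesCS4A03G0995900.1, an abundant transcript on chromosome 4A, fell in the rachis, and its floret difference was not called. Its rachis values were 11223, 6140, 4130 and 2049 normalized counts at 29 °C, against 17138, 33561, 28955 and 29716 at 22 °C. Its floret values were 8546, 8863, 7196 and 6371 at 29 °C, against 6626, 13802, 6218 and 7699 at 22 °C. The rachis groups were separate and the floret groups overlapped. The log2 difference was −2.43 (SE 0.385, adjusted p = 4.3e-06) in the rachis and −0.08 (SE 0.427, adjusted p = 0.90) in the floret. Their difference was −2.35 (SE 0.585, adjusted p = 0.0098). It was not called without replicate 4 of 29 °C (−1.93, adjusted p = 0.069) or when the fit held the compared groups alone (adjusted p = 0.15), and over all alternatives the adjusted p ran from 6.1e-05 to 0.15.

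TraesCS1D03G0556300.1 on chromosome 1D showed the opposite sign. In the rachis it had 86.9, 121, 156 and 156 normalized counts at 29 °C, against 18.0, 1.29, 1.36 and 3.87 at 22 °C. In the floret it had 29.9, 13.6, 47.9 and 40.1 at 29 °C, against 8.91, 1.87, 30.7 and 30.0 at 22 °C, with overlapping groups. The rachis difference was 4.75 (SE 0.686, adjusted p = 7.6e-07). The floret difference was 1.26 (SE 0.802, adjusted p = 0.22). The difference between the tissues was 3.50 (SE 1.06, adjusted p = 0.046), and it lost its call in 9 of 16 alternatives, the adjusted p running from 0.00013 to 0.22. Those 9 were edgeR, the fit of only the compared groups, a pseudocount of 0.5, and leaving out any of 6 single libraries, which were replicates 2, 3 and 4 of either temperature.

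Calls were found all over the measured genome and were more frequent among abundant genes. Between 14.8 and 17.6% of the genes on a chromosome were called higher, and between 13.4 and 16.4% lower. The A, B and D subgenomes had 15.9, 15.6 and 16.0% of their genes higher and 14.8, 14.1 and 14.6% lower. With the genes in 4 equal groups by abundance, from the least to the most abundant, the share called higher was 10.8, 12.5, 16.5 and 23.6%, and the share called lower was 5.02, 11.9, 19.0 and 22.2%. Reads per gene, and with them the precision of a difference, rise in the same order. The 1308 rachis-leaning genes had 9.63% higher and 11.2% lower calls, and the 518 floret-leaning genes 3.47 and 3.09%, both under the shares of 15.8 and 14.5% over all genes tested. Rachis-leaning genes took 7.94 ± 1.27% of the values at 29 °C and 6.84 ± 2.31% at 22 °C (SD, n = 4 each, exact permutation p = 0.486). The difference of 1.09 percentage points was 0.598 without replicate 2 of 29 °C, 0.0817 without replicate 2 of 22 °C and 1.90 without replicate 1 of 22 °C. Floret-leaning genes took 0.270 ± 0.101% and 0.264 ± 0.0414% (exact permutation p = 0.886).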

How the data were processed

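Poly(A)-selected RNA was sequenced from rachis and floret of wheat heads. The authors deposited a signal table of normalized counts per gene and library. Tools listed in the submitters' processing notes, without their roles, are STAR, featureCounts, DESeq2, Trimmomatic 0.36, FastQC and MultiQC. No genome build was given. In every library 100% of the values were whole reads divided by 1 factor, within 0.01. The table as read here holds 55578 entries (1 incomplete, left out; 53798 gene IDs), so chromosomes 6 and 7 were not analysed, and library totals are not full depths.

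The main test was limma 3.58.1 (R 4.3.3) on log2(normalized count + 1), with 1 mean per group, a variance trend, and a spread shared by all rachis groups (or, between tissues, by all groups of both). Genes needed at least 10 in at least 3 libraries. Tests were two-sided, with Benjamini-Hochberg adjustment over all genes tested. A fold change on this scale understates the change of low genes. Differences between 2 heat effects were tested as interaction terms; single-library values by exact permutation tests. Alternatives were edgeR 4.0.16 and DESeq2 1.42.0 on the whole reads, TMM factors, other filters and pseudocounts, leaving out each library, a replicate block, and a head axis covariate. Residuals of same-numbered 29 °C and 22 °C rachis libraries correlated at −0.0754, −0.0988, 0.0713 and 0.0448, so no test within the rachis was paired. Floret and rachis of a replicate come from 1 head, but the main test between tissues had no block; the plant was the block in an alternative. The main test and edgeR were also run on simulated counts. There limma made 45 false calls and edgeR 8 over 38883 genes, and limma recovered 38.8% of 1.5-fold changes. Each gene was drawn separately, without a shared head axis or a deviating library. The simulation therefore cannot show how the calls behave under these.

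The members and lists were chosen with earlier results of these data known. Named genes are the 2 higher and 2 lower with the largest fold change that were called, had a mean of at least 50, did not overlap, and in the higher group had a highest library at most 3 times the lowest, plus 1 in each direction for the 3 times together and for the differences from EBR and from the floret. The rule passed 2866 higher and 2080 lower genes. Lists of 16-fold tissue-enriched genes at 0 h, planned for the tissue check, held 0 genes, and the 2-fold lists replaced them after the data were seen. Gene lists by function could not be used, as no ID matched a name (RefSeq gene table of IWGSC CS RefSeq v2.1).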

Additional observations from a re-analysis of the deposited data

Results flagged for a closer look

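In 4 of 26 sets of 4 libraries examined, a single library lay far from the other 3 by Dixon's test, which by chance marks about 1 set in 20. Replicate 1 of 22 °C was the high one in TraesCS2A03G0031100.1 (67.5 normalized counts), TraesCS2A03G0031200.1 (94.6) and TraesCS1D03G0556300.1 (18.0). Replicate 2 of 22 °C was the high one in TraesCS1D03G0648300.1 (379).

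The heat effect at 24 h after DMSO seed differed from another heat effect, by interaction tests, in 3089 genes against 8 h, 9307 against 16 h, 7371 against EBR seed and 1321 against the floret. Of 32 such differences in the 8 named genes, 24 were called. TraesCS2A03G0031100.1 was more positive at 24 h after DMSO seed than at 8 h by 7.30, than at 16 h by 8.53 and than after EBR seed by 8.31 (log2). TraesCS2A03G0031200.1 gave 6.16, 7.52 and 7.89 in the same order. TraesCS1D03G0648300.1 was more negative, at −3.19, −3.73 and −3.47. TraesCS4D03G0181100.1 gave −3.29, −3.23 and −2.82, and −2.25 against the floret. TraesCS4A03G0995900.1 gave −2.83, −2.66, −2.59 and −2.35 in that order. TraesCS1D03G0556300.1 gave 4.26, 5.98, 4.47 and 3.50. TraesCS1B03G0235600.1, chosen for falling at every time, was still more negative at 24 h than at 16 h by −0.97, than after EBR seed by −0.89 and than in the floret by −1.53. The remaining named gene, TraesCS1B03G0819300.1, had no called difference.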

How the results depend on the processing

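The heat count at 24 h (11798) kept within 1.5 times under 18 of 21 alternatives. The exceptions were 7778 with the head axis covariate, 1953 when the fit held the compared groups alone, and 6748 without 22 °C replicate 2; leaving out single libraries spanned 6748 to 13655. A fit of the compared groups alone gave 36 at 8 h, 219 at 16 h, 634 after EBR seed, 354 and 3559 for 24 h minus 8 h and 16 h, 2484 for DMSO minus EBR, 10 for rachis minus floret and 6382 for 22 °C minus 0 h. With the head axis covariate they were 1962 for 24 h minus 16 h, 1572 for DMSO minus EBR, 11877 for 29 °C minus 0 h and 4000 for 22 °C minus 0 h. DESeq2 gave 1199 at 8 h, 1575 at 16 h and 1600 after EBR seed. For rachis minus floret, edgeR gave 780, no filter 2073, a pseudocount of 5 gave 2078, and the replicate block 3210. Leaving out single libraries spanned 1683 to 5909 for 24 h minus 8 h, 4583 to 12022 for 24 h minus 16 h, 2954 to 10570 for DMSO minus EBR, 737 to 2622 for rachis minus floret, 22744 to 24149 for 29 °C minus 0 h and 5693 to 19724 for 22 °C minus 0 h. The share of floret-leaning genes differed by 0.00675 percentage points, and from −0.0345 to 0.0418 with single libraries left out, changing sign in 4 cases with p of 0.457 or more. The rachis-leaning share differed by 1.09 points, or 0.0817 to 1.90 with single libraries left out. The head axis difference ran from 0.426 to 1.44. The cause of these changes was not tested. The replicate block changed no other call named here: the heat count with it was 11808. Tissue lists at 4 and 64-fold from 0 h held no genes and gave no value. A depth of 10598979 to 15862211 reads limits calls in low genes.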
